A study of Mus musculus with 27 samples.

Results

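The genes described here are 10 genes of the CC chemokine system, 9 ligands and 1 receptor, in cultured mouse macrophages with or without the mitochondrial chaperone TRAP1. The ligands are Ccl2, Ccl7, Ccl8, Ccl12, Ccl3, Ccl4, Ccl5, Ccl6 and Ccl9, and the receptor is Ccr2. They were chosen by name, for their part in the recruitment of monocytes and with their levels in these libraries already known. Their levels and differences are therefore given as a description, without p-values. Where a threshold on an adjusted p calls them higher or lower, the call only describes them. All 10 were found among the 50559 genes of the count table, and all 10 passed the filter on low counts that left 13614 genes for testing.

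The study compared bone marrow-derived macrophages of wild-type (WT) and TRAP1-deficient (TRAP1 KO) C57BL/6 mice, all labelled as females of 3-4 months. Naive macrophages (Mφ) were differentiated in culture, and part of them received 10 ng/mL IL-4 for 24 h to give M2 macrophages. Both were then kept for 48 h in control medium (DMEM) or in medium conditioned by malignant peripheral nerve sheath tumor cells (MPNST-CM), and RNA was read from its 3′ end by QuantSeq. The 8 groups of genotype, cell state and medium each held 3 libraries of what the labels call batch 1, 24 in all, and these give every value below unless batch 2 is named. These are cells in a dish with tumor medium, without tumor cells, and the labels do not tie the libraries to animals or cultures. The methods give only a general minimum of 3 repeats for experiments, so the spread between libraries may be technical.

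CC chemokines are small secreted proteins that attract leukocytes through G protein-coupled receptors. Ccl2, Ccl7, Ccl8 and Ccl12 are the monocyte chemoattractant proteins, and Ccr2, the receptor of Ccl2, Ccl7 and Ccl12, lets classical monocytes leave the marrow and enter inflamed or tumor tissue. Ccl3, Ccl4 and Ccl5 are inflammatory ligands, of which Ccl3 and Ccl5 bind Ccr1, and Ccl6 and Ccl9 are rodent ligands of Ccr1 that myeloid cells make in quantity.

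The batch 1 libraries held 7037684 to 9089792 counts, and the 10 genes together took 0.254% to 1.15% of them. Trap1 was at 10.4 to 18.8 CPM (counts scaled to the size of the library, by TMM) in the 12 WT libraries and at 0 counts in the 12 TRAP1 KO libraries. Xist, the RNA of the inactive X chromosome in females, was at 268 to 501 CPM in WT and at most 1.14 CPM in TRAP1 KO libraries of this batch, while the Y-linked genes Ddx3y and Kdm5d had 0 counts in all 27 libraries. Genotype and this difference in Xist cannot be told apart in batch 1. Summed macrophage markers (Adgre1, Cd68, Csf1r, Itgam, Lyz2) stood at 7288 to 11559 CPM in every library, against at most 20.4 CPM for neutrophil markers and at most 0.414 CPM for T cell markers. The IL-4 markers Retnla and Chil3 were below 3 CPM in Mφ groups and at 97.4 CPM or more on average in M2 groups. Arg1, however, averaged 4.89 CPM in TRAP1 KO M2 in control medium against 92.0 CPM in WT M2. The sum of all 4 listed IL-4 markers also rose with MPNST-CM in Mφ, which had no IL-4. It went from 715 to 749 CPM up to 1171 to 1349 CPM in WT Mφ. In TRAP1 KO Mφ it went from 681 to 753 CPM up to 2545 to 2665 CPM, beside 2629 to 2907 CPM in TRAP1 KO M2 in control medium. Because these are bulk libraries, fewer cells of a kind and less RNA per cell cannot be told apart.

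**Figure D1:**
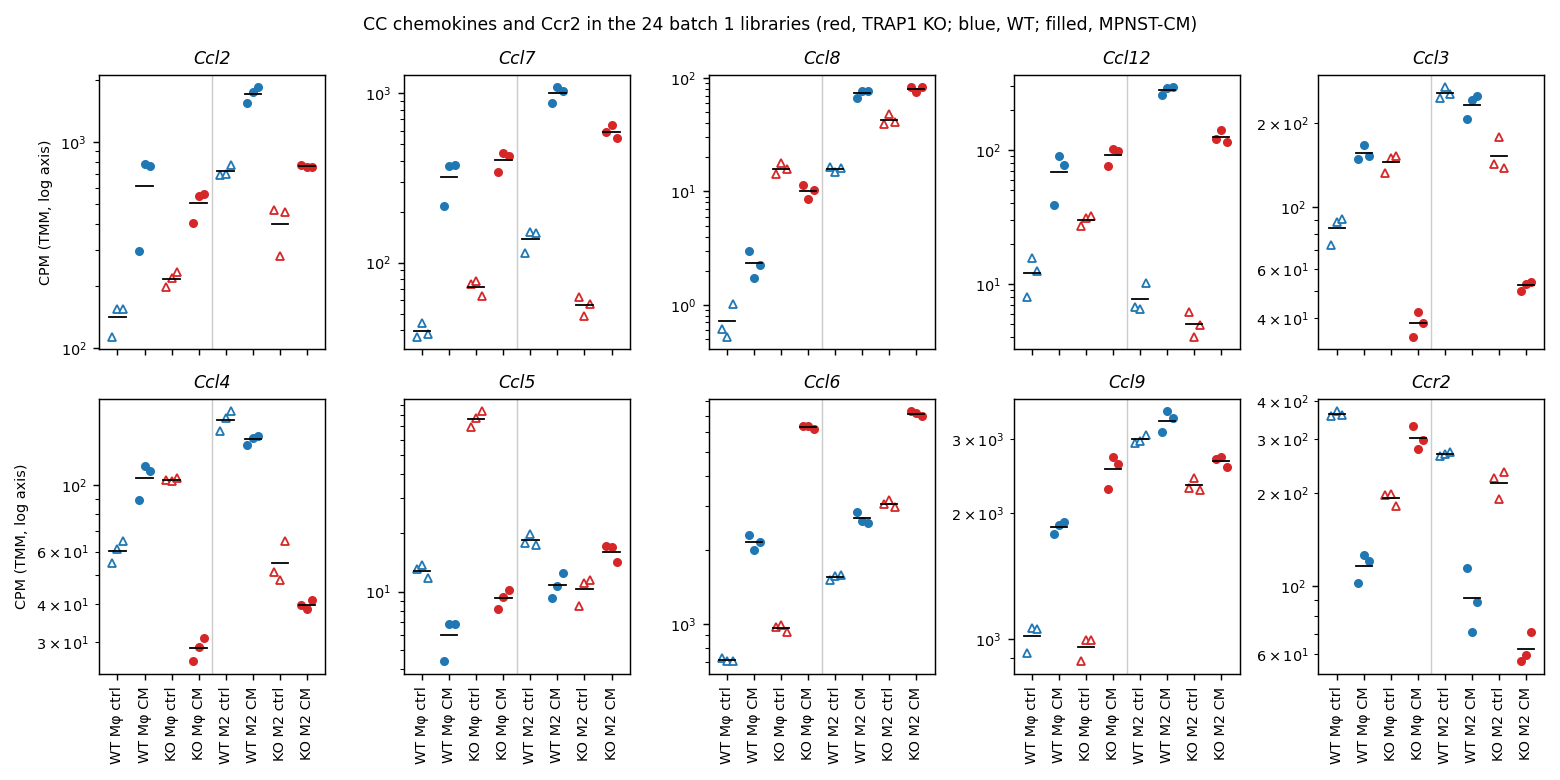
Level of each of the 10 genes in the 24 batch 1 libraries, as CPM on a log axis whose range differs between panels, with 1 point per library and a bar at the mean of the 3 libraries of each group (ctrl, control medium; CM, MPNST-CM). Ccl2, Ccl7 and Ccl12 stand higher in MPNST-CM than in control medium within each genotype and cell state, whereas Ccl3 and Ccl4 do so in WT Mφ and not in TRAP1 KO.

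The monocyte chemoattractant genes Ccl2, Ccl7 and Ccl12 were higher in MPNST-CM than in control medium in all 4 backgrounds (WT or TRAP1 KO, Mφ or M2), with no overlap between the libraries of the media. The share of all genes without such overlap was not counted, here or below. The highest levels of Ccl2, Ccl7 and Ccl12 were all in WT M2 macrophages in MPNST-CM. In M2 macrophages the TRAP1 KO levels were below WT in both media for all 3 genes. In control medium, however, Ccl12 was not called and the call of Ccl2 was lost when any single library of the groups compared was left out.

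Ccl2, the best known ligand of Ccr2, was at 113, 155 and 154 CPM in WT Mφ in control medium and at 296, 784 and 761 CPM in MPNST-CM. The 3 WT Mφ libraries in MPNST-CM were far apart, with replicate 1 lowest, but none reached down to the control medium. TRAP1 KO Mφ had 197, 219 and 233 CPM in control medium and 406, 545 and 558 CPM in MPNST-CM. In M2 macrophages Ccl2 was at 689, 698 and 777 CPM in WT and 466, 279 and 457 CPM in TRAP1 KO in control medium. Every WT M2 library thus stood above every TRAP1 KO M2 library. In MPNST-CM the WT M2 libraries rose to 1551, 1759.5 and 1852 CPM, and the TRAP1 KO M2 libraries stood close together at 771, 759 and 756 CPM. The log2 fold change of Ccl2 by MPNST-CM was 2.13 ± 0.28 (SE) in WT Mφ, 1.22 ± 0.27 in TRAP1 KO Mφ, 1.26 ± 0.27 in WT M2 and 0.93 ± 0.27 in TRAP1 KO M2. Across the 8 groups the mean of Ccl2 ranged 12.2-fold, from WT Mφ in control medium to WT M2 in MPNST-CM, and the 5 groups in the middle of this order overlapped their neighbours.

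Ccl7, which binds Ccr2 among other receptors, went from 36.4, 43.9 and 38.2 CPM to 216, 373 and 377 CPM in WT Mφ and from 74.4, 77.8 and 63.3 CPM to 344, 446 and 426 CPM in TRAP1 KO Mφ. In WT M2 it went from 114, 151 and 149.7 CPM to 873, 1087 and 1035 CPM, and in TRAP1 KO M2 from 62.6, 48.3 and 57.4 CPM to 588, 649 and 546 CPM. The medium therefore separated the libraries in each background by more than their spread. The log2 fold changes were 3.03 ± 0.19 in WT Mφ, 2.50 ± 0.18 in TRAP1 KO Mφ, 2.85 ± 0.18 in WT M2 and 3.41 ± 0.19 in TRAP1 KO M2. Of the 7 steps in the order of group means, 6 had no overlap, and the 1 that overlapped lay between the Mφ of both genotypes in MPNST-CM.

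Ccl12, a mouse ligand of Ccr2, showed the widest span between media. In WT M2 it was at 6.76, 6.48 and 10.1 CPM in control medium (45 to 72 counts) and at 257, 292 and 297 CPM in MPNST-CM, a log2 fold change of 5.18 ± 0.29 or 36.2-fold. In TRAP1 KO M2 it was at 6.15, 4.02 and 4.96 CPM and at 122, 142 and 115 CPM, a log2 fold change of 4.65 ± 0.30 or 25.1-fold. In Mφ the span was smaller, and Ccl12 was higher in control medium than in M2 of the same genotype for TRAP1 KO and overlapped M2 for WT. WT Mφ had 7.97, 15.6 and 12.4 CPM in control medium and 39, 89.8 and 78.0 CPM in MPNST-CM. TRAP1 KO Mφ had 27.3, 31.2 and 32 CPM and 76.6, 103 and 98.8 CPM. The order of the 8 groups thus ran from TRAP1 KO M2 in control medium to WT M2 in MPNST-CM, over a 55.9-fold range of means.

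Ccl8, a monocyte chemoattractant that in mice is best known as a ligand of Ccr8, stood apart from the other 3. It was close to the detection limit of 3 counts in WT Mφ, with 0.613, 0.521 and 1.03 CPM (4 to 9 counts) in control medium and 3.01, 1.73 and 2.26 CPM (15 to 26 counts) in MPNST-CM. TRAP1 KO Mφ had 14.1, 17.8 and 15.8 CPM in control medium and 11.5, 8.64 and 10.3 CPM in MPNST-CM. In TRAP1 KO Mφ the 3 libraries in MPNST-CM were therefore below the 3 in control medium, opposite to WT. In M2 the medium separated the groups upwards, from 16.4, 14.8 and 16.1 CPM to 66.6, 76.4 and 76.6 CPM in WT and from 39.2, 47.9 and 41.1 CPM to 82.7, 74.5 and 83.1 CPM in TRAP1 KO. The log2 difference of TRAP1 KO from WT was 4.41 ± 0.22 in Mφ in control medium, where WT rests on few counts, and 0.13 ± 0.12 in M2 in MPNST-CM, where the libraries overlapped. Its group means spanned 111-fold.

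Ccl12 and Ccl8 lie next to each other on chromosome 11, in a cluster with Ccl2, Ccl7 and Ccl11, by the gene order of RefSeq. The 250 bases before the RefSeq start of each are printed here for the neighbouring pair. With MPNST-CM their levels went opposite ways in TRAP1 KO Mφ, though both rose in WT Mφ. They come from build GRCm38.p6, Ccl12 at chr11:82101595-82101844 and Ccl8 at chr11:82114935-82115184, both on the plus strand and written 5′ to 3′, with the letters TATAAA in capitals.
Ccl12: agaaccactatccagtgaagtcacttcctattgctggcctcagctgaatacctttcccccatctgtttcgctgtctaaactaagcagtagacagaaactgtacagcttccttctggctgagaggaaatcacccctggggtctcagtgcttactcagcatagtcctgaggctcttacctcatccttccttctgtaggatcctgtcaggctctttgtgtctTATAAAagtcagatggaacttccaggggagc
Ccl8: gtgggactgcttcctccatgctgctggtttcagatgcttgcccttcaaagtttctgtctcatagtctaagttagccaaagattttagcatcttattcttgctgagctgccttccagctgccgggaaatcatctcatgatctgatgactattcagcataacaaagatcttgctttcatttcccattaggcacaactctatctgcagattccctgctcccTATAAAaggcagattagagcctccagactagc
The motif TATAAA began 31 bases before the start in Ccl12 and 32 bases before it in Ccl8. Searched on both strands of the window from 250 bases before to 50 after the start, TATAAA was in 13.6% of all 32851 windows. Aligned end to end, the windows of Ccl8 and Ccl12 were identical at 54.9% of the aligned columns, and the longest run they shared was 11 bases. Windows were found for 6 of the 10 genes (Ccl8, Ccl12, Ccl3, Ccl6, Ccl9 and Ccr2).

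Ccl3, Ccl4 and Ccl5 did not follow the monocyte chemoattractants. Ccl3 and Ccl4 were higher in MPNST-CM than in control medium in WT Mφ and lower in TRAP1 KO Mφ, so that the genotypes, which had TRAP1 KO above WT in control medium, stood the other way round in MPNST-CM. Ccl5 was lower in MPNST-CM in 3 of the 4 backgrounds.

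Ccl3, a macrophage inflammatory protein that binds Ccr1, was at 73.1, 88.7 and 90.6 CPM in WT Mφ in control medium and at 149, 167 and 152 CPM in MPNST-CM. In TRAP1 KO Mφ it was at 133, 149 and 152 CPM in control medium and at 34.3, 42.2 and 38.6 CPM in MPNST-CM. The libraries of TRAP1 KO Mφ in MPNST-CM were the lowest of all 24. In WT M2 the media overlapped, with 245, 268 and 254 CPM in control medium and 206, 242 and 249.8 CPM in MPNST-CM. In TRAP1 KO M2 they did not, with 142, 177 and 138 CPM in control medium and 50.3, 53.1 and 54.0 CPM in MPNST-CM. The log2 fold changes by MPNST-CM were 0.89 ± 0.10 in WT Mφ, -1.91 ± 0.11 in TRAP1 KO Mφ, -0.14 ± 0.10 in WT M2 and -1.54 ± 0.11 in TRAP1 KO M2.

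Ccl4, a macrophage inflammatory protein close to Ccl3, had 54.8, 61.0 and 64.9 CPM in control medium and 89.4, 116 and 111 CPM in MPNST-CM in WT Mφ. TRAP1 KO Mφ had 104, 103 and 105 CPM and 25.8, 28.8 and 30.9 CPM, again above WT in control medium and below it in MPNST-CM. In M2 the genotypes were apart in both media. WT M2 had 152, 167 and 176 CPM in control medium and 136, 143 and 145 CPM in MPNST-CM, and TRAP1 KO M2 had 51.2, 48.2 and 65 CPM and 39.8, 38.6 and 41.3 CPM. TRAP1 KO was thus lower than WT by log2 differences of -1.59 ± 0.11 and -1.83 ± 0.11 in M2. Ccl3 and Ccl4 lie side by side on chromosome 11, and as the strand setting of the counting is not stated in the sources used here, reads shared by the genes were not tested for.

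Ccl5, a ligand of Ccr1 and Ccr3, stood out in a single group. TRAP1 KO Mφ in control medium had 69.4, 77.2 and 83.6 CPM, and the highest of the 21 other libraries had 19.8 CPM. In MPNST-CM the same cells had 8.11, 9.37 and 10.2 CPM, a log2 fold change of -3.05 ± 0.15 or 8.31-fold lower. WT Mφ went from 13, 13.7 and 11.7 CPM to 4.40, 6.80 and 6.79 CPM. WT M2 went the same way, from 17.7, 19.8 and 17.3 CPM to 9.30, 10.7 and 12.5 CPM. TRAP1 KO M2 went the other way, from 8.41, 11.1 and 11.4 CPM to 17.1, 16.8 and 14.2 CPM, without overlap. Apart from the first group, the 7 group means ran from 6.00 CPM (WT Mφ in MPNST-CM) to 18.3 CPM (WT M2 in control medium), and 3 of the steps between them overlapped.

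Ccl6 and Ccl9 supplied most of the counts of the 10 genes, between 61.3% and 87.5% of them in every library. Both were higher in MPNST-CM than in control medium in all 4 backgrounds without overlap. For Ccl9 in M2 the step was small. It was not called in WT (log2 fold change 0.15 ± 0.08), and in TRAP1 KO its call was lost when any single library of the groups compared was left out. Ccl6 and Ccl9 differed in genotype, with Ccl6 above WT in TRAP1 KO macrophages of every state and medium and Ccl9 on either side of it.

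Ccl6, a myeloid chemokine that binds Ccr1, had 727, 709 and 707 CPM in WT Mφ in control medium and 2308, 2006 and 2155 CPM in MPNST-CM. TRAP1 KO Mφ had 969.7, 995 and 933 CPM in control medium and 6382, 6349.5 and 6155 CPM in MPNST-CM. The step with the medium was thus 3.02-fold in WT and 6.52-fold in TRAP1 KO, from levels that already differed 1.35-fold. WT M2 had 1508, 1571 and 1582 CPM in control medium and 2839.9, 2628 and 2579.8 CPM in MPNST-CM. TRAP1 KO M2 had 3077, 3185 and 2988 CPM and 7289, 7183 and 6958 CPM. Every TRAP1 KO M2 library in control medium was therefore above every WT M2 library in MPNST-CM. None of the 7 steps in the order of the 8 group means of Ccl6 overlapped, which held for no other of the 10 genes.

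Ccl9, which shares Ccr1 with Ccl6, varied least, with a 3.48-fold range of group means. In Mφ in control medium the genotypes overlapped, with 926, 1064 and 1055 CPM in WT and 884, 995 and 992 CPM in TRAP1 KO. In MPNST-CM they were apart, with 1785, 1873 and 1906 CPM in WT and 2281, 2720.2 and 2623 CPM in TRAP1 KO. WT M2 had 2946, 2977 and 3070.2 CPM in control medium and 3116, 3499.9 and 3366 CPM in MPNST-CM. TRAP1 KO M2 lay below WT M2 in each medium, with 2300.3, 2431 and 2266 CPM and 2693, 2725 and 2573 CPM. The medium moved Ccl9 in M2 by log2 fold changes of only 0.15 ± 0.08 in WT and 0.19 ± 0.08 in TRAP1 KO.

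Ccl9 and Ccl6 are neighbours on chromosome 11 between Ccl5 and Ccl3. The 250 bases before their RefSeq starts are printed because their levels rose together with MPNST-CM in Mφ but parted by genotype in M2. There TRAP1 KO lay above WT for Ccl6 and below it for Ccl9. Both are on the minus strand of GRCm38.p6, Ccl6 at chr11:83593088-83593337 and Ccl9 at chr11:83578637-83578886, written 5′ to 3′ on the strand of the gene with TATAAA in capitals.
Ccl6: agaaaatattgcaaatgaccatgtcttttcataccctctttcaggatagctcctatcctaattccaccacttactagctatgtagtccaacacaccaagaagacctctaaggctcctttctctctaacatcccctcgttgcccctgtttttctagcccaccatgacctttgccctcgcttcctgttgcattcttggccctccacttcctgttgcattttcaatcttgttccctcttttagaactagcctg
Ccl9: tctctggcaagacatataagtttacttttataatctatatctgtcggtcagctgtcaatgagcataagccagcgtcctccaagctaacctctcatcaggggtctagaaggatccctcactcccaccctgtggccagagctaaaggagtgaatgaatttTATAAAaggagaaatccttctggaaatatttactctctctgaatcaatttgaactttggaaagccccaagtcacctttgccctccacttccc
In Ccl9 the motif TATAAA began 92 bases before the start, and its reverse complement was found at 94 bases, overlapping it, and at 224 bases. Ccl6 held no TATAAA on either strand. The windows were identical at 47.8% of the aligned columns, with a longest shared run of 13 bases. The AP-1 motif TGANTCA was found in Ccl9, 53 bases before the start, and in 7.81% of all windows. The NF-kB motif (GGGA, any 2 bases, TTCC, in 1.47% of all windows), TTCNNNGAA (STAT, 8.3%) and ACGTG (HIF, 19.6%) were in none of the windows of the 6 genes. Only these exact letters were searched, and most windows of all genes lack them too. Their absence from 6 short windows does not show that the genes lack such sites.

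Ccr2, the receptor through which monocytes follow the chemoattractants, was lower in MPNST-CM in WT Mφ and in M2 of both genotypes and higher in TRAP1 KO Mφ. WT Mφ had 358, 369.6 and 360.1 CPM in control medium and 102, 126 and 121 CPM in MPNST-CM. TRAP1 KO Mφ had 198, 199 and 182 CPM in control medium and 331, 279 and 299 CPM in MPNST-CM. The genotypes thus changed places between the media, with log2 differences of TRAP1 KO from WT of -0.91 ± 0.12 in control medium and 1.38 ± 0.12 in MPNST-CM. In M2, WT had 264, 269 and 273 CPM in control medium and 115, 70.9 and 88.7 CPM in MPNST-CM. TRAP1 KO M2 had 224, 191 and 235 CPM and 57.0, 59.8 and 71.0 CPM, so that the genotypes just overlapped in MPNST-CM.

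Markers of monocytes moved with Ccr2 in TRAP1 KO Mφ but not in WT Mφ. The sum of Ly6c2, Plac8, Vcan, F13a1 and Hp was 38.5 to 51.4 CPM in TRAP1 KO Mφ in control medium and 286 to 309.8 CPM in MPNST-CM. In WT Mφ it was 92.8 to 96.8 CPM and 109 to 118 CPM. In M2 the sum was 27.5 to 30.5 CPM and 99.5 to 111 CPM in WT, and 15.6 to 18.3 CPM and 183 to 202 CPM in TRAP1 KO, where Ccr2 was lower in MPNST-CM. In TRAP1 KO Mφ in MPNST-CM the sum came mostly from Vcan, a matrix proteoglycan, with a mean of 209 CPM. None of these markers was at 0 in all libraries, and the part of such cells in the Ccr2 levels was not tested.

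The first comparison the design implies is MPNST-CM against control medium, which asks what the tumor medium does to the macrophages. In WT Mφ 8 of the 10 genes were called higher and 2 lower (Ccl5 and Ccr2) by edgeR's quasi-likelihood test at an adjusted p of 0.05, where 11.3% of all 13614 genes were called higher and 9.96% lower. In TRAP1 KO Mφ 6 were called higher and 4 lower, against 14.8% and 18.1% of all genes. In WT M2 5 were called higher, 2 lower and 3 neither, against 11.2% and 13.3%. In TRAP1 KO M2 7 were called higher and 3 lower, against 16.7% and 20.2%. As the genes were chosen with these values known, the counts only describe them. The median log2 fold change of the 10 was 1.24 in WT Mφ, 0.93 in TRAP1 KO Mφ, 0.47 in WT M2 and 0.77 in TRAP1 KO M2, and that of all genes lay between -0.04 and -0.01. Those called higher in all 4 backgrounds were Ccl2, Ccl7, Ccl12 and Ccl6, but Ccl2 lost its call in TRAP1 KO M2 (from 0.93 to 0.73) without replicate 2 of TRAP1 KO M2 in control medium.

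**Figure D2:**
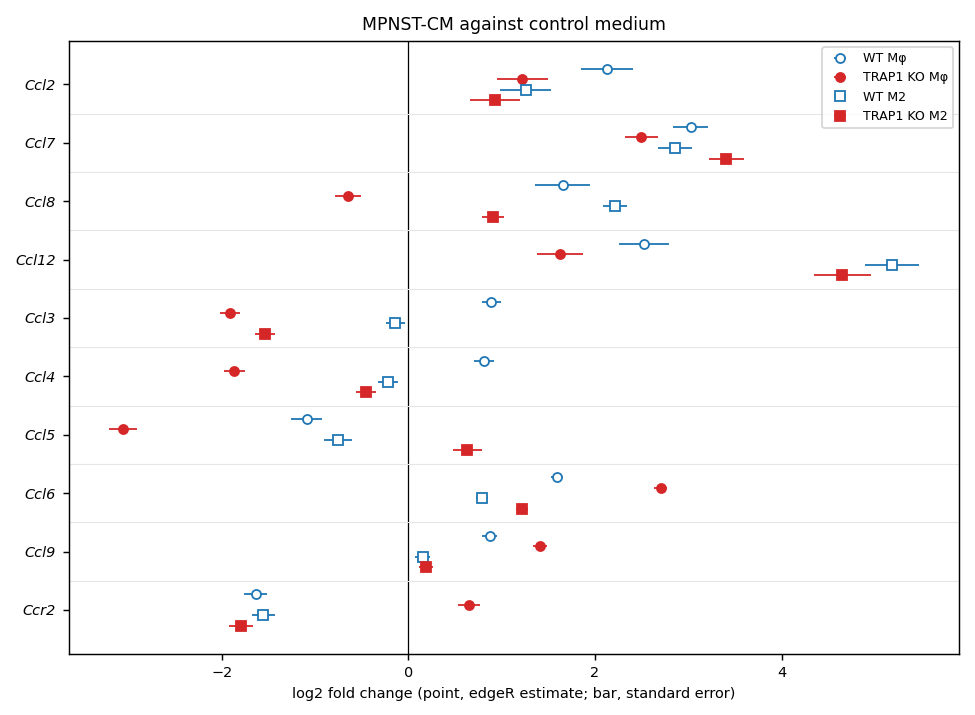
Log2 fold change of each gene between MPNST-CM and control medium in the 4 backgrounds, with its standard error as a bar (circles, Mφ; squares, M2; open blue, WT; filled red, TRAP1 KO; 3 libraries a group). Ccl2, Ccl7, Ccl12, Ccl6 and Ccl9 lie right of 0 in every background, and Ccl3, Ccl4 and Ccr2 lie on opposite sides of 0 in WT and TRAP1 KO Mφ.

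The second comparison is TRAP1 KO against WT, which asks what the loss of TRAP1 does in each condition. These comparisons use the same libraries as those of the media. In Mφ in control medium 7 of the 10 genes were called higher in TRAP1 KO and Ccr2 lower, against 8.64% and 7.97% of all genes, led by Ccl8 (log2 difference 4.41 ± 0.22) and Ccl5 (2.58 ± 0.14). The 2 others were Ccl2, at 0.62 ± 0.27, and Ccl9, at -0.09 ± 0.08. In Mφ in MPNST-CM 5 were called higher and 2 lower (Ccl3 and Ccl4), against 19.1% and 19.2%. Ccl2, Ccl7 and Ccl12 were not called there and their libraries overlapped between genotypes. In M2 in control medium 2 were called higher (Ccl8 and Ccl6) and 6 lower, against 8.56% and 7.87%. In M2 in MPNST-CM 2 were called higher (Ccl5 and Ccl6) and 7 lower, against 17.2% and 16.8%. The median over the 10 genes was 0.78 and 0.44 in Mφ and -0.69 and -0.65 in M2, in control medium and MPNST-CM in turn, beside medians of all genes from 0.02 to 0.05.

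Ccl6 was called higher in TRAP1 KO in all 4 conditions, at log2 differences of 0.44 ± 0.06, 1.55 ± 0.07, 0.99 ± 0.06 and 1.41 ± 0.07. Ccl2 in M2 in control medium was called lower in TRAP1 KO at -0.85 ± 0.27, but that call was lost in 6 of 6 repeats that each left out a library of these groups. WT Mφ replicate 1 in MPNST-CM also decided a call, since without it the log2 difference of Ccl2 in Mφ in MPNST-CM went from -0.29 to -0.62 and was called lower in TRAP1 KO. Ccl5 lost its call in Mφ in MPNST-CM without the same library (from 0.62 to 0.44), and in M2 in MPNST-CM without WT M2 replicate 1 in MPNST-CM (from 0.56 to 0.40). With the batch 2 library of WT Mφ in control medium added, the differences of Ccl7 and Ccl4 in Mφ in control medium went from 0.86 and 0.79 to 0.59 and 0.43 and were no longer called, nor was Ccl5 in MPNST-CM in Mφ (0.59) or M2 (0.52). In a fit of only the groups compared Ccl5 was not called in Mφ in MPNST-CM (0.57).

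**Figure D3:**
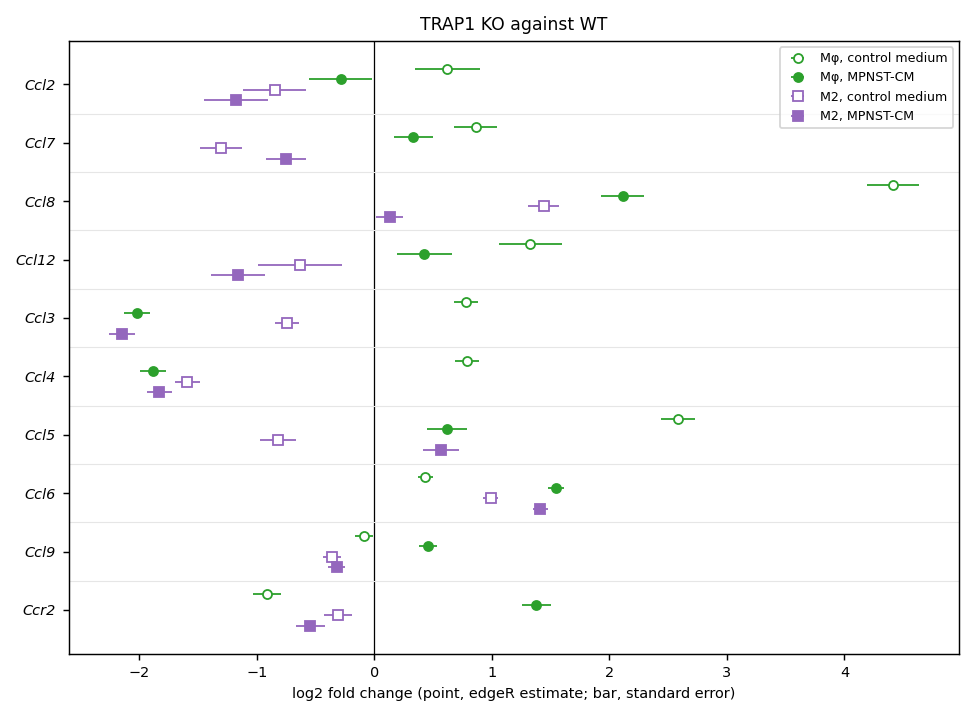
Log2 difference of each gene between TRAP1 KO and WT macrophages in the 4 conditions, with its standard error as a bar (circles, Mφ; squares, M2; open, control medium; filled, MPNST-CM; 3 libraries a group). Ccl6 lies right of 0 throughout, and Ccl2, Ccl7 and Ccl12 lie left of 0 in M2 and right of 0 in Mφ in control medium.

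An interaction term compared the genotypes in their response to the tumor medium. In Mφ 7 of the 10 genes were called, 3 with a higher response in TRAP1 KO and 4 with a lower one, against 8.17% and 11.5% of all genes. Those with a lower response were Ccl3 (-2.80 ± 0.15), Ccl4 (-2.67 ± 0.15), Ccl8 (-2.30 ± 0.33) and Ccl5 (-1.97 ± 0.22), and those with a higher one were Ccr2 (2.29 ± 0.17), Ccl6 (1.11 ± 0.09) and Ccl9 (0.54 ± 0.11). Without WT Mφ replicate 1 in MPNST-CM, Ccl2, Ccl7 and Ccl12 were called as well, at -1.24, -0.75 and -1.19, so that all 10 were. In M2 4 were called, Ccl5 (1.39 ± 0.22) and Ccl6 (0.42 ± 0.09) higher and Ccl3 (-1.40 ± 0.15) and Ccl8 (-1.31 ± 0.17) lower, against 9.36% and 10.8% of all genes. The M2 terms of Ccl2 (-0.33 ± 0.38), Ccl7 (0.55 ± 0.24) and Ccl12 (-0.53 ± 0.43) were not called. Ccl3 and Ccl8 thus had the lower response in TRAP1 KO in both states, while Ccl5 went opposite ways in Mφ and M2.

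The last comparison, M2 against Mφ in control medium, compares cells with and without the earlier IL-4 treatment after 48 h in that medium. In WT 8 of the 10 genes were called higher in M2 and Ccr2 lower, against 19.1% and 18.1% of all genes, with Ccl8 (4.40 ± 0.22) and Ccl2 (2.36 ± 0.28) at the top. In TRAP1 KO 4 were called higher and 3 lower, against 15.6% and 12.9%. The 3 lower ones were Ccl5 (-2.89 ± 0.15), Ccl12 (-2.58 ± 0.31) and Ccl4 (-0.93 ± 0.11), and the 4 higher ones were Ccl6, Ccl8, Ccl9 and Ccl2. The call of Ccl2 (0.89 ± 0.27) was lost without TRAP1 KO Mφ replicate 1 or 2 (0.82 and 0.90) and without TRAP1 KO M2 replicate 1 or 3 (0.77 and 0.79), all in control medium.

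Across the 24 libraries some of the genes varied together, which is given as a description because libraries of a group share their treatment and all share 1 scaling. Pearson's r of log2 CPM (prior count 2) was 0.92 for Ccl3 and Ccl4, 0.89 for Ccl7 and Ccl12, 0.87 for Ccl2 and Ccl9 and 0.85 for Ccl2 and Ccl7. Ccr2 had an r of -0.61 with Ccl2, -0.70 with Ccl7 and -0.66 with Ccl12, but of 0.27, 0.07 and 0.16 once each library was taken as its deviation from its group mean. By these deviations Ccl2, Ccl7 and Ccl12 still varied together at 0.80 to 0.88, whereas Ccl3 and Ccl4 fell to 0.18. Replicate 1 was lowest for Ccl2, Ccl7 and Ccl12 in WT Mφ in both media and in MPNST-CM in TRAP1 KO Mφ and WT M2. In TRAP1 KO Mφ in control medium it was lowest for Ccl2 and Ccl12 only, and in TRAP1 KO M2 for none of them. The part of a shared replicate effect in these correlations was not tested.

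**Figure D4:**
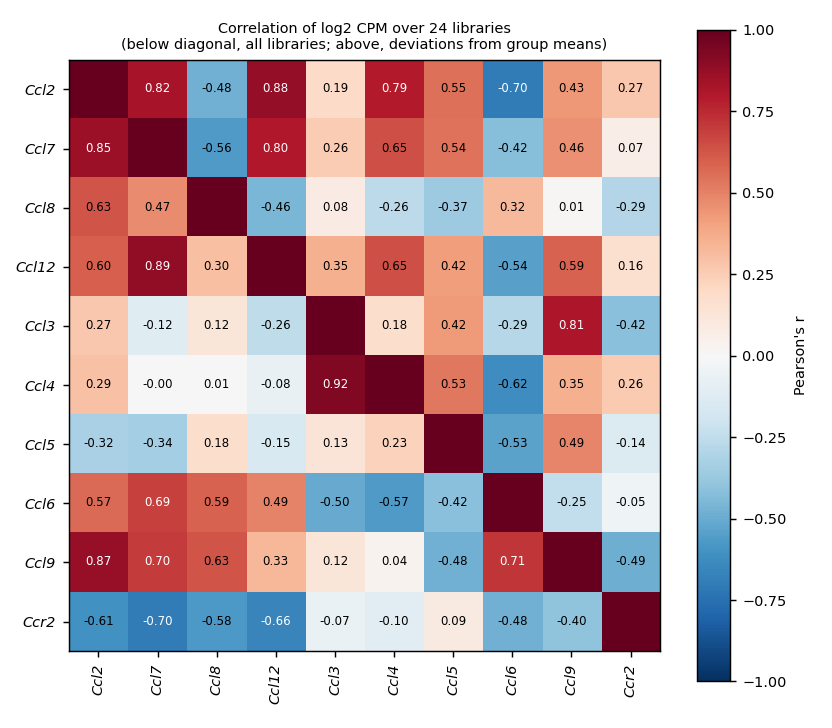
Pearson's r between the 10 genes over the 24 batch 1 libraries, as colour and number, from log2 CPM below the diagonal and from deviations from the group means above it. Ccl3 and Ccl4 reach 0.92 below the diagonal and 0.18 above it, while Ccl2, Ccl7 and Ccl12 stay at 0.80 or more above it.

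The genes most like 4 of the set were sought among 8195 others with a mean of at least 10 CPM, over the same 24 libraries. Ccl2 was closest to Mindy3 (r 0.93), Cst7 (0.92) and Cd164 (0.89). Ccl3 was closest to Oxct1 (0.96), Abcb8 (0.94) and Angptl2 (0.93), and Ccl6 to Ero1a (0.95), Pi4k2a (0.95) and Cfp (0.94). For Ccr2 the closest were Fcrls (0.86) and Top2b (0.77).

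Of 28 other CC ligands and receptors, 14 passed the filter on low counts. They were listed by family but with earlier results of these data known, so their adjusted p-values here and below only describe them. Ccr1, the receptor of Ccl3, Ccl5, Ccl6 and Ccl9, was higher in MPNST-CM in TRAP1 KO Mφ, at 27.4, 41.6 and 30.2 CPM in control medium and 391, 533 and 607 CPM in MPNST-CM (log2 fold change 3.95 ± 0.31, edgeR adjusted p = 8.39e-09). In WT Mφ its libraries overlapped between the media, at 94.8, 152 and 143 CPM and 97.1, 225 and 206 CPM (0.44 ± 0.27, edgeR adjusted p = 0.296). The response of Ccr1 was higher in TRAP1 KO by 3.51 ± 0.40 in Mφ (edgeR adjusted p = 3.34e-06) and by 1.39 ± 0.38 in M2 (edgeR adjusted p = 0.0143).

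Ccr3, the eotaxin receptor, fell with MPNST-CM in all 4 backgrounds, most in TRAP1 KO Mφ (-2.26 ± 0.19, edgeR adjusted p = 1.64e-10), from 11.1, 15.8 and 12.1 CPM to 3.12, 1.58 and 3.44 CPM. The IL-4-induced ligands Ccl22 and Ccl24 were near 1 CPM in Mφ, and in M2 in control medium the TRAP1 KO levels were below WT (-2.06 ± 0.24 and -2.40 ± 0.20, edgeR adjusted p = 1.37e-06 and 1.69e-09). Ccrl2, an atypical receptor, was higher in TRAP1 KO in control medium, by 1.13 ± 0.21 in Mφ and 0.85 ± 0.21 in M2 (edgeR adjusted p = 0.000261 and 0.00637). Among the 14 genes, MPNST-CM raised 1 and lowered 2 in WT Mφ, where 21.2% of all genes were called in either direction, 4 and 4 in TRAP1 KO Mφ (32.9%), 2 and 6 in WT M2 (24.5%) and 4 and 7 in TRAP1 KO M2 (36.8%). In TRAP1 KO against WT 1 was higher and 2 lower in Mφ (16.6% of all genes) and 3 and 6 in M2 (16.4%) in control medium, and 4 and 2 in Mφ (38.2%) and 3 and 3 in M2 (34%) in MPNST-CM. Interaction terms were called for 2 higher and 2 lower in Mφ (19.7% of all genes) and for 2 higher and 1 lower in M2 (20.2%). The counts for MPNST-CM in WT Mφ, for genotype in Mφ in both media and in M2 in MPNST-CM, and for both interactions were near these shares. For genotype in M2 in control medium, leaving out 1 library gave 6 to 7 called genes in place of 9. In control medium M2 was higher than Mφ for 8 in WT and 9 in TRAP1 KO, against 19.1% and 15.6% of all genes.

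**Figure D5:**
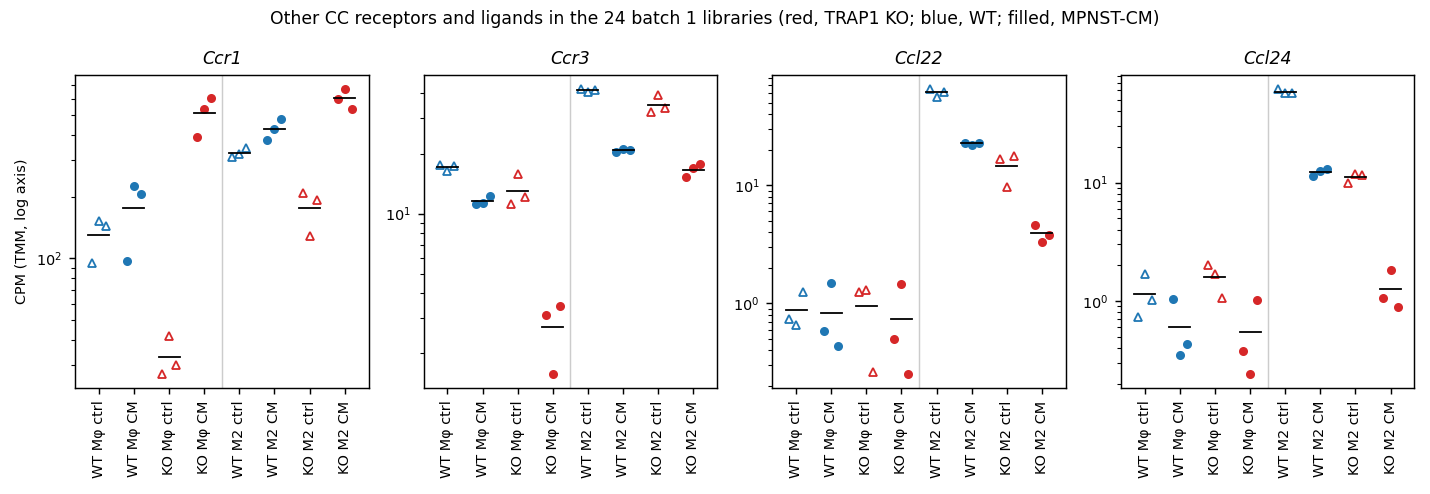
Level of 4 other CC receptors and ligands in the 24 batch 1 libraries, as CPM on a log axis whose range differs between panels, with 1 point per library and a bar at the mean of the 3 libraries of each group (ctrl, control medium; CM, MPNST-CM). Ccr1 stands higher in MPNST-CM in TRAP1 KO cells of both states, and Ccl22 and Ccl24 are near 1 CPM in Mφ.

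The 13 regulators of chemokine transcription and mRNA decay that were listed were all tested. The list was made by function with earlier results of these data known. Those named are the called ones with the largest change, so the adjusted p-values only describe them. They were NF-kB subunits, inhibitors and other regulators of NF-kB, and the decay factors Zfp36 and Zc3h12a. With MPNST-CM 1 rose and 2 fell in WT Mφ, 2 and 5 in TRAP1 KO Mφ, 1 and 3 in WT M2 and 2 and 3 in TRAP1 KO M2, with medians from -0.24 to 0.03. The shares of all genes called in these comparisons were 21.2%, 32.9%, 24.5% and 36.8% in turn. The counts in WT Mφ, WT M2 and TRAP1 KO M2 were near that background. In TRAP1 KO Mφ the NF-kB inhibitor Tnfaip3 (-1.65 ± 0.31, edgeR adjusted p = 0.000265) and the subunits Relb (-1.20 ± 0.13, 1.69e-08) and Rel (-1.03 ± 0.22, 0.000781) fell. In WT Mφ Nfkb1 (-0.57 ± 0.17, edgeR adjusted p = 0.0148) and Relb (-0.40 ± 0.13, 0.0217) fell and Nfkbib rose (0.36 ± 0.12, 0.0313). In M2 the NF-kB regulator Nfkbiz rose by 0.97 ± 0.19 in WT and 1.33 ± 0.16 in TRAP1 KO (edgeR adjusted p = 0.000327 and 1.00e-07). Relb fell in both (-0.57 ± 0.13 and -0.42 ± 0.13), with Nfkbie in WT (-0.86 ± 0.14) and Nfkb2 in TRAP1 KO (-0.57 ± 0.11).

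In TRAP1 KO against WT 4 of the 13 regulators were higher in Mφ in control medium, where 16.6% of all genes were called in either direction, led by Tnfaip3 (1.33 ± 0.30, edgeR adjusted p = 0.00343), Relb (0.50 ± 0.12) and Bcl3 (0.43 ± 0.12). In Mφ in MPNST-CM 3 were higher, Nfkbiz (0.90 ± 0.15), Bcl3 (0.78 ± 0.12) and Zc3h12a (0.64 ± 0.15), and 2 lower, a share near the 38.2% of all genes. In M2 in control medium 2 were higher and 4 lower (16.4% of all genes), with Nfkbiz at 1.30 ± 0.19, Zfp36 at -0.97 ± 0.20 and Nfkbie at -0.81 ± 0.14. In M2 in MPNST-CM 3 were higher and 4 lower (34% of all genes), with Nfkbiz at 1.66 ± 0.16, Bcl3 at 1.06 ± 0.13 and Tnfaip3 at -0.84 ± 0.29. The part of these regulators in the levels of the chemokines was not tested.

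Batch 2 held 1 further library each of 3 groups, and their levels are on a scale set over all 27 libraries. WT Mφ replicate 4 in control medium had 271 CPM of Ccl2, 138 of Ccl3 and 119 of Ccl4, above the 3 batch 1 libraries of its group, and 675 of Ccl6 and 1022 of Ccl9, near them. The TRAP1 KO M2 libraries of this batch, with 0 and 2 counts of Trap1, were not nearest to their own groups. The one in MPNST-CM reached a rank correlation of 0.983 with the control-medium libraries of WT M2 but 0.949 with its own group. The one in control medium reached 0.970 with the MPNST-CM libraries of TRAP1 KO Mφ but 0.914 with its own. Replicate 4 in MPNST-CM had 2000.5 CPM of Ccl6, 11.9 of Ccl12 and 210.2 of Ccr2, all outside the range of the batch 1 libraries of its own group. Both held Xist, at 308 and 404 CPM, unlike the TRAP1 KO libraries of batch 1. With all 27 libraries in the fit, the log2 fold change by MPNST-CM in TRAP1 KO M2 turned from -0.46 to 0.11 for Ccl4 and from 0.63 to -0.13 for Ccl5, and the called genes among the 10 went from 10 to 4, while those of the whole table went from 5016 of 13614 to 826 of 13723.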

How the data were processed

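RNA of macrophages was sequenced from its 3′ end (QuantSeq, single reads of 75 bases). The authors trimmed the reads with Trimmomatic, mapped them with HISAT2, kept mapping qualities over the minimum of 20 and deposited raw counts per gene from featureCounts, without normalization. The labels name build mm39 and the methods mm10, and no coordinate of the count table is used. Of the 32 columns deposited, 5 carry names that fit no sample label and were left out. It holds no columns of comparisons.

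The 10 genes, and the lists of other CC genes, regulators and cell markers, were chosen with earlier results of these data known. The text names all 10 genes, the other CC genes with a group mean of at least 10 CPM, the 3 called regulators with the largest change for each medium and genotype comparison, and for 4 genes the 3 with the most similar levels. A few genes that these rules and lists include are not reported here.

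Counts were scaled by TMM, filtered with filterByExpr and fitted with edgeR 4.0.16 (limma 3.58.1, R 4.3.3) in a robust quasi-likelihood model with 1 term for each of the 8 groups of batch 1, and p-values were adjusted by Benjamini-Hochberg over all 13614 genes. They measure the spread between these libraries, which the labels do not tie to animals or cultures. The methods of the study name DESeq and no covariates, so DESeq2 1.42.0 was an alternative. Counts were simulated for the media in WT Mφ with 200 of 13614 genes changed 4-fold. Of these, edgeR recovered 200 with 7 false calls, and DESeq2 200 with 16. The simulation gave all genes the same spread beyond counting noise and changed only genes above a low mean count. It does not show recovery for genes as variable as Ccl2 or as low as Ccl8 in WT Mφ. The 3 libraries of a group differed by more than counting noise (chi-square per degree of freedom 2.11 to 37.4 over 24 pairs). Batch 1 totals were 7037684 to 9089792 counts and batch 2 totals 9997776 to 11152362. The detection limit was set at 3 counts per library and covers counting error only. Batch 2 entered only alternatives, because its groups are incomplete. Other alternatives were RLE size factors, no filter, a replicate block, a fit of only the groups compared, a prior count of 0.5 and leaving out each library. The fit of batch 1 with WT Mφ replicate 4 in control medium was added after the data were seen. Promoter sequences are from RefSeq (GRCm38.p6).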

Additional observations from a re-analysis of the deposited data

Results flagged for a closer look

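In the groups that have 4 libraries once batch 2 is added, 8 of 30 sets of values held a library whose gap to the nearest other was large for the range of the group (by Dixon's 95% critical value), where chance gives about 1 in 20. TRAP1 KO M2 replicate 4 in MPNST-CM, of batch 2, was such a library for 5 genes, with Ccl8 at 27.5 CPM (the others at 74.1 to 83.0), Ccl3 at 181 (50.2 to 53.9), Ccl4 at 102 (38.5 to 41.2), Ccl6 at 2000.5 (6942 to 7283) and Ccr2 at 210.2 (57.0 to 70.8). TRAP1 KO M2 replicate 4 in control medium had Ccl7 at 336 CPM (47.4 to 61.5), and WT Mφ replicate 4 in control medium had Ccl4 at 119 CPM (55.2 to 65.4). A single batch 1 library was among them, TRAP1 KO M2 replicate 2 in control medium, with Ccl2 at 273 CPM (449 to 462, the batch 2 library included). By the interaction term, WT and TRAP1 KO differed in the response to MPNST-CM for 7 of the 10 genes in Mφ, where 8.17% of all genes were called higher and 11.5% lower, and for 4 in M2 (9.36% and 10.8%), a description because the genes were chosen with these values known.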

How the results depend on the processing

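Counts of called genes were within 1.5 times the reported ones under DESeq2, RLE size factors, no filter, the replicate block and the added WT Mφ library, for all 28 counts. With all 27 libraries the called members went from 10 to 6 for MPNST-CM in WT Mφ, from 10 to 4 for MPNST-CM in TRAP1 KO M2, from 8 to 2 for genotype in Mφ and from 8 to 3 in M2 in control medium, and from 4 to 0 for the interaction in M2. The genes called over the whole table went down with them, from 2889 to 958, 5016 to 826, 2261 to 854, 2238 to 1137 and 2751 to 180 in the same order. With a batch term those of genotype in Mφ in control medium were 3 and of the interaction in M2 0. Of the other CC genes, with all 27 libraries MPNST-CM called 1 in WT Mφ, 1 in WT M2 and 3 in TRAP1 KO M2, and genotype 5 in M2 in control medium. With the batch term these were 2 in WT M2, 3 in TRAP1 KO M2 and 5, and 3 for genotype in M2 in MPNST-CM. Of the regulators, with all 27 libraries MPNST-CM called 0 in WT Mφ, 2 in WT M2 and 0 in TRAP1 KO M2, and genotype 1 in Mφ in control medium, 2 in Mφ and 2 in M2 in MPNST-CM. With the batch term these were 2 in WT M2, 0 in TRAP1 KO M2, 0, 2 and 3. A fit of only the groups compared called 1 regulator for MPNST-CM in WT Mφ. The cause was not tested, but 2 of the 3 libraries added stand apart from their groups.

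Signs changed with all 27 libraries for MPNST-CM in TRAP1 KO M2 in Ccl4 (from -0.46 to 0.11) and Ccl5 (from 0.63 to -0.13, and -0.27 with the batch term), for genotype in M2 in MPNST-CM in Ccr2 (from -0.55 to 0.080), and with the batch term for the interaction in M2 in Ccl6 (from 0.42 to -0.026). Leaving out 1 library gave 8 to 9 called members for MPNST-CM in TRAP1 KO M2 and 7 to 10 for the interaction in Mφ, and elsewhere stayed within 1 of the reported counts. For the regulators it gave 0 to 2 for MPNST-CM in WT Mφ, 3 to 5 in TRAP1 KO M2, 1 to 4 for genotype in Mφ in control medium, 3 to 5 in Mφ and 4 to 8 in M2 in MPNST-CM, and 3 to 5 in M2 in control medium, and for the other CC genes 3 to 5 for MPNST-CM in WT Mφ. Libraries with the same replicate number were not taken as paired, and the labels do not say whether they share an animal or culture. The 77 correlations of their deviations, the lowest at -0.214, do not exclude pairing. The mean of these correlations was 0.107 with 34 over 0.1, above that of 175 pairs of other numbers at -0.045 with 30 over 0.1. Under the replicate block Ccl12 was called for genotype in Mφ in MPNST-CM (0.46), for M2 against Mφ in WT (-0.96) and for the interaction in Mφ (-0.89), Ccl9 was called for MPNST-CM in WT M2 (0.20), and Ccl2 lost its call for genotype in M2 in control medium (-0.68). The call of Ccl9 for MPNST-CM in TRAP1 KO M2 (0.19) was lost with RLE size factors, without the filter and without any 1 of the 6 libraries compared.

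The depth limits Ccl8 in WT Mφ in control medium, at 4 to 9 counts. Ccl2 in Mφ in control medium (0.62 ± 0.27 for genotype) was called in the fit of only the groups compared (0.58) and not otherwise in batch 1, although the libraries did not overlap.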
